A study of Mus musculus with 6 samples.

Results

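The genes described here are those of fibroblast growth factor (FGF) signalling and of the feedback it sets on ERK. They were taken by symbol: every numbered Fgf gene, the receptors Fgfr1 to Fgfr4 and Fgfrl1, the cofactors Fgfbp1, Fgfbp3, Klb and Flrt3, the adaptors Frs2 and Frs3, the Sprouty and Spred genes, Il17rd, Dusp4, Dusp6 and the ETS factors Etv1, Etv4 and Etv5. This gave 46 genes of the 25701 measured. PolyA RNA was sequenced from cardiac progenitor (CP) stage cells that were differentiated from 46C mouse embryonic stem cells (ESCs), a line that carries a fluorescent reporter in the neural gene Sox1. There were 3 libraries of cells with a CRISPR/Cas9 knockout of Zhx1, titled KO_ZHX1 and called Zhx1-KO here, and 3 libraries of 46C control cells, titled Ctrl and called 46C-Ctrl. Zhx1 codes for a nuclear protein with zinc fingers and homeoboxes, and the comparison asks which genes depend on it at the CP stage. Both groups share the 46C background and were grown to this stage in medium with added FGF10, basic FGF and VEGF, so some FGF was supplied from outside. The number of knockout clones was not given in the sources used here, and clone and genotype cannot be told apart.

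Most FGFs are secreted proteins that bind heparan sulfate and tyrosine kinase receptors on the cell surface. The activated receptors recruit docking proteins and switch on the RAS-ERK cascade, which induces ETS transcription factors of the PEA3 family together with inhibitors of the same cascade, so that signalling limits itself. In the embryo FGFs drive gastrulation and the exit from pluripotency, Fgf8 and Fgf10 mark the second heart field from which much of the heart grows, and other members pattern the brain.

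Values are normalized counts, meaning counts per gene after the authors' scaling by a single factor for each library. Depth was similar, with sums from 13769967 to 15940874 per library in units of the smallest step of its values. A gene was tested with limma when its mean over the 6 libraries was at least 10, and it was called at an adjusted p under 0.05 over all 15372 genes tested. Zhx1 itself had 225, 325 and 308 normalized counts in the libraries labelled Zhx1-KO 1, 2 and 3, against 460, 181 and 457 in 46C-Ctrl 1, 2 and 3. The groups overlap, and the transcript level does not check the labels (log2 fold change -0.25 with a standard error, SE, of 0.35 and a limma adjusted p of 0.579). The paper reports its own check of the knockout in ESCs, by PCR of the gene and by Zhx1 mRNA and protein. Without 46C-Ctrl 2, which had the lowest Zhx1 value of all, the log2 fold change was -0.70 and passed (limma adjusted p = 0.0113), a setting added after the data were seen. 46C-Ctrl 2 also stood apart from the other libraries in RNA content, with 2.77% of its normalized counts from mitochondrial genes against 1.72 to 1.87% in the other 5. All 27 calls among the FGF pathway genes were kept without it. The Y-linked genes Ddx3y and Uty were at 0 in all 3 libraries labelled Zhx1-KO, while Ddx3y had 603 to 715 normalized counts in 46C-Ctrl. On chromosome 11, 57.0% of the 1185 tested genes were higher in the libraries labelled Zhx1-KO, with a median log2 fold change of 0.42. Fgf11, Fgf18, Spred2 and Etv4 lie there, and the part of that shift in their values was not tested.

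The cells of both groups expressed cardiac genes, but not at the same level. Of the 11 cardiac progenitor and cardiomyocyte markers, 7 were lower, 3 higher and 1 not called. Their summed level was 9399 to 10261 normalized counts in the libraries labelled Zhx1-KO and 14351 to 16488 in 46C-Ctrl. Hand1 made up most of that gap, at 198 ± 28.1 in the libraries labelled Zhx1-KO and 5774 ± 329 in 46C-Ctrl (SD, n = 3 each). The 3 higher markers were the contractile genes Myh6, Myh7 and Myl7, while Tnnt2, another contractile gene, was lower (log2 fold changes 0.92, 0.43, 1.17 and -0.55). Hand1, Gata4, Hand2 and Myl7 had the smallest adjusted p (log2 fold changes -4.87, -4.07, -2.52 and 1.17), and the heart field factor Tbx5 was almost absent from the libraries labelled Zhx1-KO (1.93 ± 1.02 there, 62.2 ± 4.78 in 46C-Ctrl, SD, n = 3 each). Markers of other cell types moved with the groups too, beside 26.4% lower and 25.6% higher over all genes tested. Of the 12 neural markers 11 were higher and 1 lower, with sums of 6505 to 6633 in the libraries labelled Zhx1-KO and 3709 to 4161 in 46C-Ctrl, where Pax6 was at 0 in each library. Endothelial markers were higher in 8 cases of 10 and lower in 1 (sums of 4963 to 5348 in the libraries labelled Zhx1-KO, 2926 to 3152 in 46C-Ctrl). Primitive streak markers were lower in 8 cases of 9 (621 to 663 in the libraries labelled Zhx1-KO, 6406 to 6462 in 46C-Ctrl). Endoderm markers were lower in 9 of 11 (14351 to 15866 in the libraries labelled Zhx1-KO, 37988 to 43109 in 46C-Ctrl). Most of the endoderm sums came from the keratin genes Krt8 and Krt18. Their means were 7222 and 6531 in the libraries labelled Zhx1-KO and 24023 and 12691 in 46C-Ctrl. Of 6 tested pluripotency markers 5 were lower. The sums over all 8 listed were 1088 to 1261 in the libraries labelled Zhx1-KO and 4635 to 4676 in 46C-Ctrl. The part of these cell types in the FGF results was not tested, and in bulk RNA, fewer cells of a type and less RNA per cell cannot be told apart.

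In the libraries labelled Zhx1-KO, more FGF pathway genes were lower than higher. Of the 46 genes, 36 had a mean of at least 10, and 10 did not. Of these 36, 18 were lower and 9 higher, and 9 were not called. Over all genes tested, 26.4% were lower and 25.6% higher, and 52.0% were called in either direction. With a change of at least 2-fold, 15 FGF pathway genes were lower and 6 higher, against 7.85% of all genes lower and 9.71% higher. Their median log2 fold change was -0.61, and that of all genes tested was 0.01. In 27 of the 36 the groups did not overlap (60.8% of all genes tested). These 27 are the called ones, 18 with every library labelled Zhx1-KO below every 46C-Ctrl library and 9 with every one above. The plot of log2 fold changes by class shows how the directions were spread. Secreted ligands ran from 1.46 for Fgf16 to -4.01 for Fgf17, the feedback inhibitors and ETS factors were mostly left of 0, and the receptors lay on both sides.

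**Figure D1:**
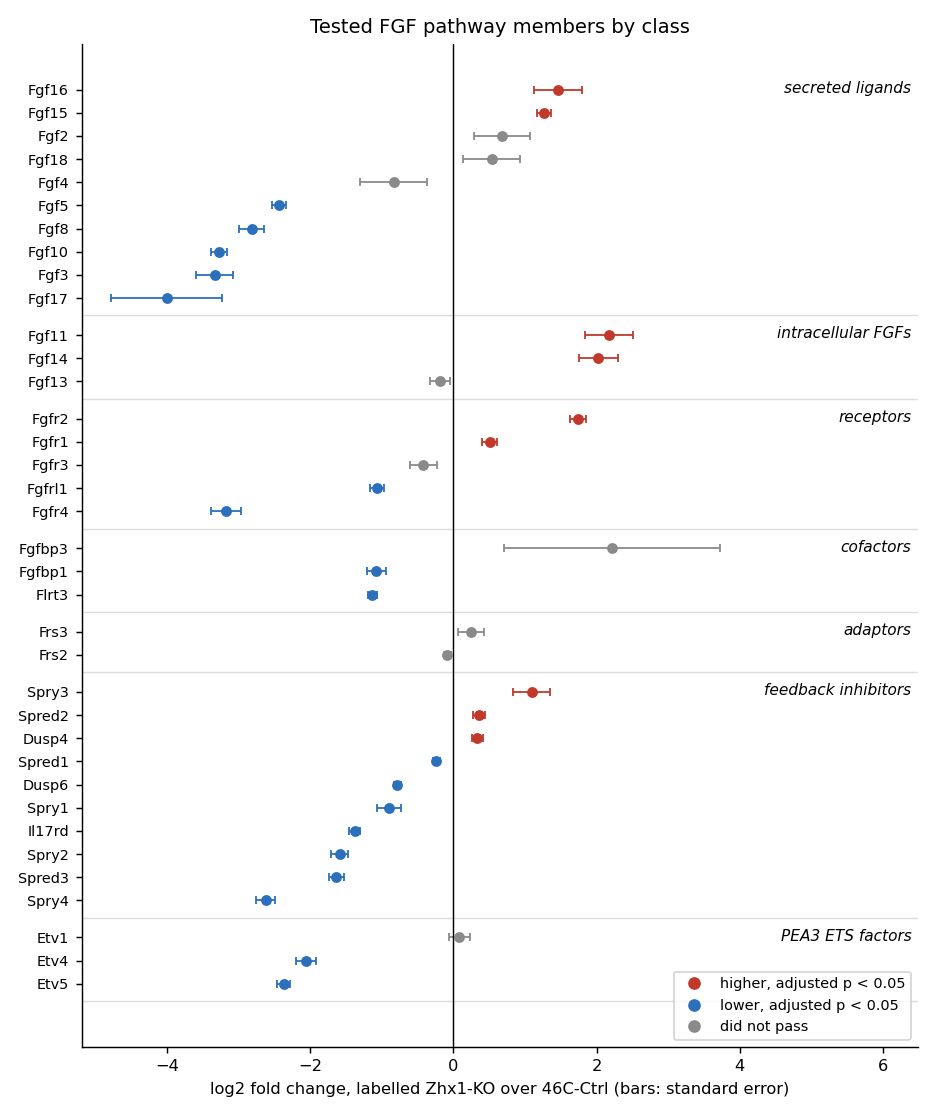
Log2 fold change of the 36 tested FGF pathway genes (libraries labelled Zhx1-KO over 46C-Ctrl, n = 3 each, on log2(normalized count + 1)), grouped by class, with the standard error from limma as bars. Red points are higher, blue points lower and grey points did not pass at an adjusted p under 0.05, and 18 points are blue against 9 red.

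Among the secreted ligands, Fgf3, Fgf5, Fgf8, Fgf10 and Fgf17 were lower, and Fgf15 and Fgf16 were higher. Of 18 ligand genes 10 were tested, of which 5 were lower, 2 higher and 3 not called, and the median log2 fold change was -1.64. The shares over all genes tested were 26.4% lower and 25.6% higher. Fgf10 (GRCm38 chromosome 13, 118669791 to 118792115), a ligand of the second heart field and of budding organs such as lung and limb, had 128, 101 and 96.8 normalized counts in the libraries labelled Zhx1-KO 1, 2 and 3, against 1055, 1060.1 and 1051 in 46C-Ctrl 1, 2 and 3. The 3 control values were close together, and every library labelled Zhx1-KO was far below them. The log2 fold change was -3.28 (SE 0.12, limma adjusted p = 1.08e-06), a 9.72-fold lower mean.

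Fgf8 (chromosome 19, 45736798 to 45742915), which is needed for gastrulation and for the second heart field, had 52.4, 47.5 and 37.0 normalized counts in the libraries labelled Zhx1-KO, against 321, 291 and 367 in 46C-Ctrl. The groups were wide apart, and the log2 fold change was -2.82 (SE 0.17, limma adjusted p = 1.27e-05). Fgf17, a close relative of Fgf8 in the same subfamily, was lower as well, at 5.04, 0 and 0 in the libraries labelled Zhx1-KO and 31.2, 30 and 24.3 in 46C-Ctrl. With 2 libraries at 0, the size of its log2 fold change depends on the pseudocount: it was -4.01 (SE 0.77, limma adjusted p = 0.00347) with 1 added to each value and -2.40 with 5 added. Fgf18, the remaining member of the subfamily, is better known from bone and cartilage and did not pass, at 15.9 ± 4.91 in the libraries labelled Zhx1-KO and 10.5 ± 2.12 in 46C-Ctrl (SD, n = 3 each).

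Fgf3 (chromosome 7, 144838083 to 144844436), a ligand of the same subfamily as Fgf10 with roles in the inner ear and the tail bud, had 13.1, 13.1 and 21.1 normalized counts in the libraries labelled Zhx1-KO, against 163, 141 and 196 in 46C-Ctrl. Its log2 fold change was -3.34 (SE 0.26, limma adjusted p = 3.64e-05), close in size to that of Fgf10. Fgf5 (chromosome 5, 98254184 to 98277030), the classical marker of the early epiblast, had 199.5, 211 and 218 normalized counts in the libraries labelled Zhx1-KO, against 1008, 1182 and 1256 in 46C-Ctrl. Its groups did not overlap either, and the log2 fold change was -2.44 (SE 0.10, limma adjusted p = 1.61e-06). Fgf4, the ligand that ESCs make for their own exit from pluripotency, belongs to the subfamily of Fgf5 and did not pass: it had 13.1, 11.1 and 11.4 in the libraries labelled Zhx1-KO and 19.5, 42.4 and 12.7 in 46C-Ctrl, where the groups overlap. Fgf2, the basic FGF that was also added to the medium as protein, did not pass at 18.4 ± 3.97 in the libraries labelled Zhx1-KO and 11.3 ± 3.48 in 46C-Ctrl (SD, n = 3 each).

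In contrast, Fgf15 and Fgf16 were higher. Fgf15 (chromosome 7, 144896531 to 144900953) is the mouse counterpart of human FGF19, a hormone of bile acid control in the gut and a gene of the embryonic brain, and it had 551, 514 and 475 normalized counts in the libraries labelled Zhx1-KO, against 195, 225 and 217 in 46C-Ctrl. Every library labelled Zhx1-KO was above every control library, and the log2 fold change was 1.27 (SE 0.10, limma adjusted p = 3.56e-05). An antisense gene, Gm26793, covers 24.9% of the exon bases of Fgf15 and did not pass itself, at 26.8 ± 11.6 in the libraries labelled Zhx1-KO and 25.9 ± 4.94 in 46C-Ctrl (SD, n = 3 each). Fgf16, a ligand of the FGF9 subfamily that the heart expresses, was low in both groups, with 41.3 ± 6.20 in the libraries labelled Zhx1-KO and 14.8 ± 5.04 in 46C-Ctrl (log2 fold change 1.46, SE 0.34, limma adjusted p = 0.00836).

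Of the 3 tested intracellular FGFs, which bind voltage-gated sodium channels and are not secreted, 2 were higher and 0 lower. Of all genes tested, 25.6% were higher and 26.4% lower. Fgf11 had 118, 113 and 105 normalized counts in the libraries labelled Zhx1-KO, against 39.0, 14.5 and 24.3 in 46C-Ctrl, with a log2 fold change of 2.17 (SE 0.34, limma adjusted p = 0.00122). It lies on chromosome 11. Fgf14, on chromosome 14, was at 47.3 ± 2.51 in the libraries labelled Zhx1-KO and 10.9 ± 1.37 in 46C-Ctrl (SD, n = 3 each), with a log2 fold change of 2.03 (SE 0.27, limma adjusted p = 0.000556). Fgf13, the third one tested, did not pass, with 165 ± 17.3 in the libraries labelled Zhx1-KO and 188 ± 20.4 in 46C-Ctrl.

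The 10 untested genes were Fgf1, Fgf6, Fgf7, Fgf9, Fgf12, Fgf20, Fgf21, Fgf22, Fgf23 and the co-receptor gene Klb, whose product, β-Klotho, endocrine FGFs such as Fgf15 and Fgf21 need for binding. Their means ran from 1.08 to 6.65 normalized counts, with no value above 15.2 in a library labelled Zhx1-KO or 18.5 in a 46C-Ctrl library. Fgf1 (mean 6.65), Fgf9 (5.63) and Fgf12 (3.30) were the highest. The plot of FGF genes by library shows the tested ones.

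**Figure D2:**
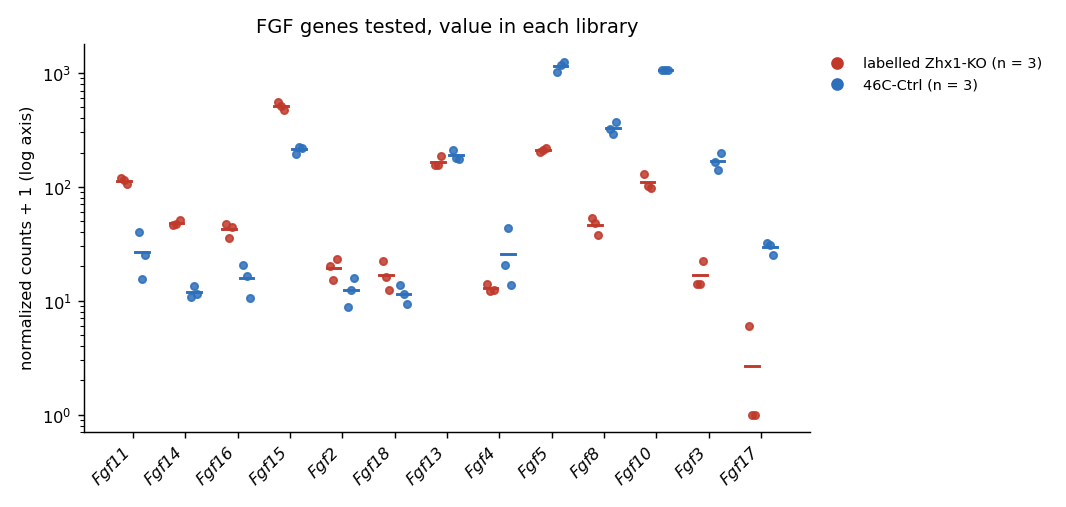
Normalized count plus 1 (log axis) of the 13 tested Fgf genes in each library, ordered by log2 fold change, with red points for the libraries labelled Zhx1-KO and blue points for 46C-Ctrl (n = 3 each) and a line at each mean. Fgf5, Fgf8, Fgf10, Fgf3 and Fgf17 have all red points below the blue ones, and Fgf11, Fgf14, Fgf16 and Fgf15 have them above.

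Levels of different genes can be set against each other only per length, so normalized counts were divided by the exon length of each gene in GENCODE. That length joins the exons of all annotated transcripts of a gene. The transcripts present in these cells were not told apart, so shares and ranks between genes depend on this choice. Summed over the 18 secreted ligand genes, this gave 374 ± 24.2 normalized counts per kb in the libraries labelled Zhx1-KO and 1122 ± 69.7 in 46C-Ctrl (SD, n = 3 each). The mixture also differed. Fgf15 made up 44.9 ± 1.56% of that sum in the libraries labelled Zhx1-KO and 6.19 ± 0.385% in 46C-Ctrl. Fgf5 made up 22.5 ± 2.36% in the libraries labelled Zhx1-KO and 40.9 ± 2.51% in 46C-Ctrl. Per length, Fgf15 was thus the leading secreted FGF transcript in the libraries labelled Zhx1-KO, and Fgf5, Fgf8 and Fgf10 led in 46C-Ctrl. The share of Fgf8 was 9.02 ± 1.19% in the libraries labelled Zhx1-KO against 21.5 ± 1.79% in 46C-Ctrl. For Fgf10 it was 6.30 ± 0.558% against 20.5 ± 1.3%, for Fgf3 1.83 ± 0.612% against 6.37 ± 0.812%, and for Fgf16 6.71 ± 0.811% against 0.817 ± 0.319%.

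The 4 signalling receptors did not move together. Fgfr2 (chromosome 7, 130162451 to 133123350), whose epithelial isoform is the receptor of Fgf10 and Fgf3, had 513, 517 and 591 normalized counts in the libraries labelled Zhx1-KO, against 143, 176 and 163 in 46C-Ctrl. All 3 libraries labelled Zhx1-KO were above all 3 controls, with a log2 fold change of 1.74 (SE 0.11, limma adjusted p = 1.44e-05). The counts are per gene, so the isoforms of Fgfr2 were not told apart. A RefSeq promoter stretch of Fgfr2 lies at 130266999 to 130267028, well inside the annotated span given here. Of the annotated exon bases of Fgfr2, 314 (3.04%) are shared with Ctbp2 on the same strand. Fgfr1 (chromosome 8, 25513654 to 25575718), the main receptor of the early embryo and of mesoderm, had 2789.7, 2993 and 2686 in the libraries labelled Zhx1-KO, against 2174, 1667 and 2145 in 46C-Ctrl. Its rise was smaller, with a log2 fold change of 0.51 (SE 0.10, limma adjusted p = 0.00468), and the lowest of its 6 values was that of 46C-Ctrl 2.

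Fgfr4 (chromosome 13, 55152640 to 55168759), a receptor of endoderm, liver and embryonic muscle, had 18.1, 16.2 and 15.8 normalized counts in the libraries labelled Zhx1-KO, against 164, 133 and 187 in 46C-Ctrl. Its log2 fold change of -3.18 (SE 0.21, limma adjusted p = 1.72e-05) was the largest among the receptors, and the groups were wide apart. Fgfr3 (chromosome 5, 33721674 to 33737068), a receptor known from growth plates and the nervous system, had 221, 200.2 and 274 in the libraries labelled Zhx1-KO and 257, 402 and 285 in 46C-Ctrl. These ranges overlap, an antisense gene covers 13.9% of its exon bases, and the difference did not pass (log2 fold change -0.43, SE 0.19, limma adjusted p = 0.0945). Fgfrl1, a receptor without a kinase domain that binds FGF ligands, had 289, 339 and 274 in the libraries labelled Zhx1-KO, against 668, 591 and 626 in 46C-Ctrl, and was lower by 2.09-fold (log2 fold change -1.07, SE 0.10, limma adjusted p = 9.68e-05).

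Per kb of exon, the 4 signalling receptors summed to 375 ± 9.25 normalized counts in the libraries labelled Zhx1-KO and 307 ± 24.4 in 46C-Ctrl (SD, n = 3 each). Fgfr1 held the largest share in every library, at 76.2 ± 2.77% in the libraries labelled Zhx1-KO and 65.6 ± 4.70% in 46C-Ctrl. Behind it the order differed. Fgfr2 held 13.9 ± 1.26% in the libraries labelled Zhx1-KO, against 5.12 ± 0.883% in 46C-Ctrl. Fgfr4 held 1.26 ± 0.115% in the libraries labelled Zhx1-KO, against 14.7 ± 1.40% in 46C-Ctrl, where it lay level with Fgfr3 (14.6 ± 4.81%). In the libraries labelled Zhx1-KO the share of Fgfr3 was 8.64 ± 1.53%.

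**Figure D3:**
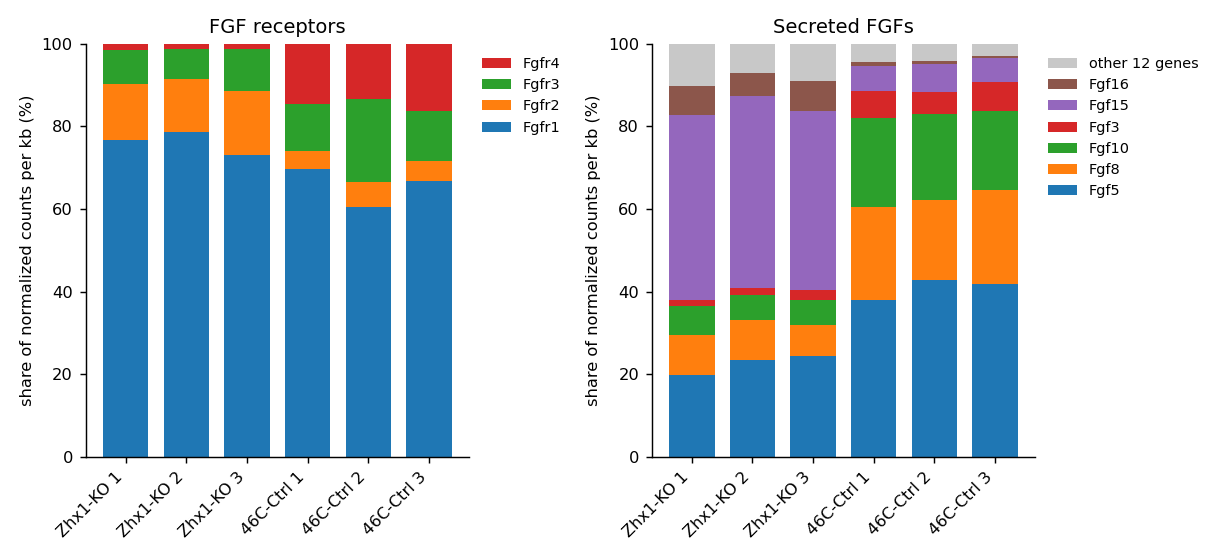
Share (%) of each gene in the summed normalized counts per kb of exon, for the 4 signalling FGF receptors (left) and the 18 secreted FGFs (right), with 1 bar per library and the libraries labelled Zhx1-KO to the left of 46C-Ctrl. Fgfr4 shrinks to a thin band and Fgfr2 widens in the libraries labelled Zhx1-KO, and Fgf15 takes 43.4 to 46.5% of the secreted FGFs there against 5.93 to 6.63% in 46C-Ctrl.

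Of the cofactors, 2 of 3 tested were lower, beside 26.4% of all genes tested. Flrt3 (chromosome 2, 140650914 to 140671469), a transmembrane protein that binds FGF receptors and was found to favour their signalling in Xenopus, had 889, 1022 and 926 normalized counts in the libraries labelled Zhx1-KO, against 2043, 2180.2 and 1995 in 46C-Ctrl (log2 fold change -1.13, SE 0.07, limma adjusted p = 1.18e-05). Fgfbp1, a secreted carrier that frees FGFs from heparan sulfate, had 80.6, 95.1 and 80.1 in the libraries labelled Zhx1-KO, against 187, 181 and 174 in 46C-Ctrl (log2 fold change -1.08, SE 0.13, limma adjusted p = 0.000384). The mean in the libraries labelled Zhx1-KO was 2.19-fold lower for Flrt3 and 2.12-fold lower for Fgfbp1. Fgfbp3, a related carrier, scattered within both groups, with 124, 24.3 and 94.2 in the libraries labelled Zhx1-KO and 68.3, 42.4 and 0 in 46C-Ctrl, and did not pass. The docking proteins that link the receptors to RAS did not pass either. Frs2 was at 1321 ± 25.4 in the libraries labelled Zhx1-KO and 1402 ± 47.3 in 46C-Ctrl, and Frs3 at 167 ± 28.1 in the libraries labelled Zhx1-KO and 141 ± 22.2 in 46C-Ctrl (SD, n = 3 each; log2 fold changes -0.09 and 0.24). For Frs3, 16.3% of the exon bases are shared with an antisense gene.

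Downstream of the receptors, all 10 feedback inhibitors were called, 7 lower and 3 higher, with a median log2 fold change of -0.84. Over all genes tested, 52.0% were called, 26.4% lower and 25.6% higher. The Sprouty proteins block the cascade between the receptor and ERK, and 3 of the 4 Sprouty genes were lower. Spry4 (chromosome 18, 38586247 to 38601415) had 105, 91.0 and 79.2 normalized counts in the libraries labelled Zhx1-KO, against 615, 561 and 529 in 46C-Ctrl, and its log2 fold change of -2.63 (SE 0.13, limma adjusted p = 4.33e-06) was the largest of the class. Spry2 (chromosome 14, 105891947 to 105896819) had 269, 284 and 346 in the libraries labelled Zhx1-KO, against 879.7, 826 and 1002 in 46C-Ctrl (log2 fold change -1.59, SE 0.12, limma adjusted p = 2.83e-05). Spry1 had 297, 273 and 226 in the libraries labelled Zhx1-KO, against 528, 395 and 578 in 46C-Ctrl, where replicate 2 was the lowest (log2 fold change -0.90, SE 0.16, limma adjusted p = 0.00247). None of these 3 genes had overlapping groups, and an antisense gene covers 24.4% of the exon bases of Spry1. Spry3 was higher instead, at 49.0 ± 4.41 in the libraries labelled Zhx1-KO and 22.7 ± 4.87 in 46C-Ctrl (SD, n = 3 each; log2 fold change 1.09, SE 0.26, limma adjusted p = 0.00861).

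The Spred proteins are relatives of Sprouty that hold the RAS inhibitor neurofibromin at the membrane. They split by gene. Spred3 had 264, 210.3 and 224 normalized counts in the libraries labelled Zhx1-KO, against 793, 698 and 684 in 46C-Ctrl (log2 fold change -1.64, SE 0.11, limma adjusted p = 1.78e-05). Spred1 had 2036, 2021 and 1999 in the libraries labelled Zhx1-KO, against 2435, 2454 and 2283 in 46C-Ctrl. That difference passed but was small (log2 fold change -0.24, SE 0.05, limma adjusted p = 0.00421), and quantile normalization brought it to -0.15 (limma adjusted p = 0.0406). Spred2 had 1112, 1074 and 1022 in the libraries labelled Zhx1-KO, against 915, 845 and 754 in 46C-Ctrl. It was higher (log2 fold change 0.35, SE 0.08, limma adjusted p = 0.00796). Spred2 lies on chromosome 11, whose tested genes had a median log2 fold change of 0.42. The part of that shift in Spred2 was not tested.

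Il17rd, also called Sef, is a membrane protein that restrains ERK and is itself expressed where FGFs act. It had 953, 1019 and 1113 normalized counts in the libraries labelled Zhx1-KO, against 2751, 2523 and 2767 in 46C-Ctrl, a log2 fold change of -1.38 (SE 0.07, limma adjusted p = 5.29e-06). The phosphatase Dusp6, which removes phosphate from ERK in the cytoplasm, had 1094, 1072 and 1091 in the libraries labelled Zhx1-KO, against 1937, 1882 and 1797 in 46C-Ctrl. The 3 values of each group were close together, and the log2 fold change was -0.78 (SE 0.05, limma adjusted p = 1.68e-05). Dusp4, its nuclear relative, was higher, with 1447, 1565 and 1365 in the libraries labelled Zhx1-KO, against 1203, 1060.1 and 1220.1 in 46C-Ctrl (log2 fold change 0.33, SE 0.08, limma adjusted p = 0.00902). Dusp4 and Dusp6 thus changed in opposite directions, each by less than 2-fold.

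Of the 3 ETS factors of the PEA3 family, which FGF signalling induces in many tissues, 2 were lower, beside 26.4% of all genes tested. Etv5 (chromosome 16, 22381309 to 22439719) had 508, 506 and 422 normalized counts in the libraries labelled Zhx1-KO, against 2648, 2335 and 2447 in 46C-Ctrl (log2 fold change -2.37, SE 0.09, limma adjusted p = 1.34e-06). Etv4 (chromosome 11, 101769742 to 101785371) had 107, 151 and 145 in the libraries labelled Zhx1-KO, against 551, 535 and 587 in 46C-Ctrl (log2 fold change -2.06, SE 0.14, limma adjusted p = 2.09e-05). On its chromosome 675 tested genes were higher and 114 lower. Etv1 did not pass, at 236 ± 24.0 in the libraries labelled Zhx1-KO and 224 ± 38.6 in 46C-Ctrl (SD, n = 3 each; log2 fold change 0.08, limma adjusted p = 0.672). Per kb of exon the 3 genes summed to 178 ± 12.1 normalized counts in the libraries labelled Zhx1-KO and 800.2 ± 43.4 in 46C-Ctrl.

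**Figure D4:**
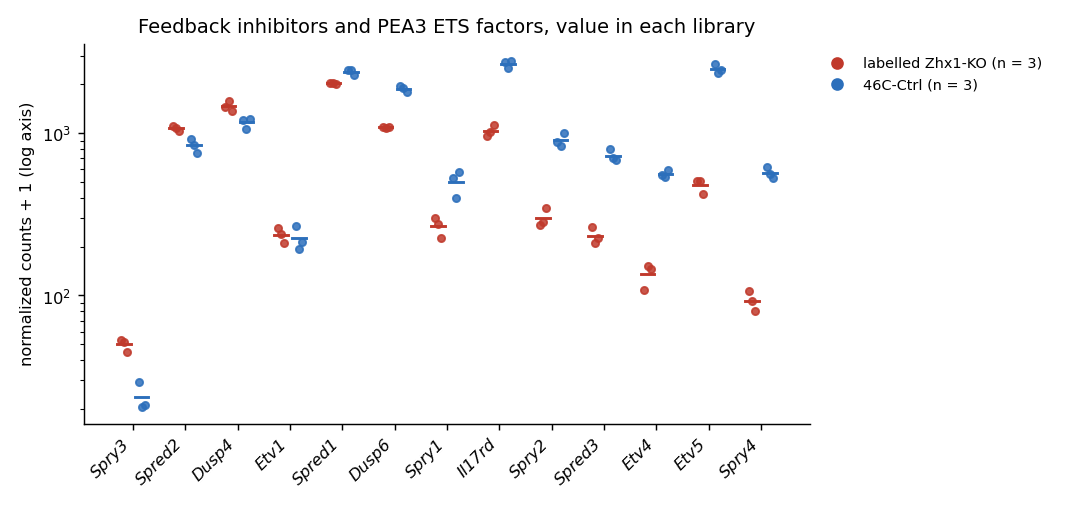
Normalized count plus 1 (log axis) of the 10 feedback inhibitors and the 3 PEA3 ETS factors in each library, ordered by log2 fold change, with red points for the libraries labelled Zhx1-KO and blue points for 46C-Ctrl (n = 3 each) and a line at each mean. Spry3, Spred2 and Dusp4 have all red points above the blue ones, Etv1 overlaps, and the other 9 genes have all red points below.

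The promoters of these genes were searched for letters that ETS factors are known to bind. RefSeq promoters (GRCm38.p6, from 250 bases before the start to 50 after it) were matched for 35 of the 46 genes. CCGGAA, read on both strands, occurred in 4 of the 14 lower genes with a promoter (Fgf5, Fgfr4, Fgfrl1 and Spry2, 28.6%) and in 0 of the 4 higher ones. Among all promoters of that length 16.7% held it, and among those of tested genes 29.7%. AGGAAG, a letter string that PEA3 binds, occurred in 6 of the 14 lower genes (Dusp6, Etv5, Fgf3, Fgfbp1, Fgfr4 and Flrt3, 42.9%) and in Fgfr2 and Spred2 among the 4 higher ones, against 38.4% of all promoters and 36.4% of those of tested genes. Both strings hold GGAA, and a given GGAA can count for only 1 of them. The share among the lower genes was near that of all tested genes for both strings. Stretches of 3 lower genes are shown, a phosphatase, a ligand and a carrier, 5′ to 3′ on the strand of the gene with the match in capitals (CTTCCT and TTCCGG are the strings read from the other strand).
Dusp6 promoter, chr10:99263009-99263038, plus strand: ctcttctttctcCTTCCTcccgccgagccc
Fgf5 promoter, chr5:98253934-98253960, plus strand: cggagccgaTTCCGGagccgctggctc
Fgfbp1 promoter, chr5:43981939-43981968, minus strand: gctggatgggaaAGGAAGggcttccaagga
The matches begin 210 bases before the start of Dusp6, 241 before that of Fgf5 and 157 before that of Fgfbp1. The log2 fold changes of these genes were -0.78, -2.44 and -1.08. A match of letters is not a measured binding site.

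Between the receptors and ERK, all 22 genes of the RAS-ERK relay were tested, of which 11 were lower, 5 higher and 6 not called. Over all genes tested, 26.4% were lower and 25.6% higher, and 52.0% were called. The median log2 fold change of the relay was -0.24, closer to 0 than that of the FGF pathway genes (-0.61). The kinase Braf was at 1427 ± 61.2 normalized counts in the libraries labelled Zhx1-KO and 2077 ± 51.2 in 46C-Ctrl (log2 fold change -0.54, SE 0.05, limma adjusted p = 0.000117), and the small GTPase Hras at 571 ± 40.7 in the libraries labelled Zhx1-KO and 992 ± 41.5 in 46C-Ctrl (-0.80). Nf1, which encodes neurofibromin, the RAS inhibitor that Spred proteins recruit, was higher, at 1372 ± 85.2 in the libraries labelled Zhx1-KO and 847 ± 14.8 in 46C-Ctrl (log2 fold change 0.69, SE 0.06, limma adjusted p = 7.29e-05), and lies on chromosome 11. The errors are SD over 3 libraries.

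Genes outside the FGF set that respond quickly to ERK were counted in the same fit. Of 18 listed, 16 were tested, of which 9 were lower, 2 higher and 5 not called, and the median log2 fold change was -0.54. The shares over all genes tested were 26.4% lower and 25.6% higher. Plaur, the urokinase receptor, had 33.3, 37.4 and 37.0 normalized counts in the libraries labelled Zhx1-KO, against 377, 351 and 372 in 46C-Ctrl (log2 fold change -3.32, SE 0.13, limma adjusted p = 1.58e-06). The immediate early factor Egr1 had 113, 111 and 88.0 in the libraries labelled Zhx1-KO, against 341, 321 and 339.6 in 46C-Ctrl (log2 fold change -1.68), and the phosphatase Dusp1 had 239, 229 and 246 in the libraries labelled Zhx1-KO, against 606, 601 and 695 in 46C-Ctrl (-1.41). For all 3 the groups were wide apart. Dusp7, an ERK phosphatase of the family of Dusp6, was higher, with 1345, 1274 and 1095 in the libraries labelled Zhx1-KO, against 658, 601 and 588 in 46C-Ctrl (log2 fold change 1.00, SE 0.09, limma adjusted p = 7.38e-05). Many signals besides FGF act on these genes, and RNA was measured, not ERK activity.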

How the data were processed

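By the study's methods, reads were trimmed (cutadapt 1.18), aligned to GRCm38 (HISAT2 2.1.0) and given FPKM values (StringTie 1.3.4d, not used here) by the authors, with HISAT2 and StringTie set for a stranded library. The authors' processing notes also list Cufflinks and DESeq2. The deposited table holds a signal per gene, read counts scaled by a single factor for each library. The program that made these counts, and its strand setting, were not given in the sources used here. Within a library all values fall on multiples of 1 step (100% within 0.01), but the steps of Zhx1-KO 1 and 2 lie too near 1 to take whole reads as recovered, so no count test was run.

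Genes with a mean of at least 10 were tested with limma 3.58.1 (R 4.3.3, mean trend, group as the only term) on log2(value + 1), with Benjamini-Hochberg adjustment over all 15372. Fold changes on that scale understate those of low genes. Folds quoted as lower are ratios of group means. The labels do not say whether the 3 libraries of a group came from separate cultures. The p-values set the group difference only against the spread among these libraries, which could be technical. They do not cover new cultures or clones. Every tested gene of the set is named, with each library's value for signalling receptors and for called genes with a mean of 50 or more in either group. From other lists, up to 4 genes with the smallest adjusted p are named, and in the cell type lists some further genes. The set, its classes and the lists were chosen with earlier results of these data known. Lengths and positions are from GENCODE annotation of GRCm38, which held 45 of the 46 genes (not Spry3). On simulated data the fit called 91 of 100 genes changed 2-fold, 76 of 100 changed 1.5-fold and 5 of 14661 unchanged ones. The changed genes there were few and had a simulated mean of at least 50. The run therefore does not give the error rate for these data or for low genes. Alternatives covered the pseudocount, the filter, 2 normalizations, the trend, a 2-fold condition, the replicate block and each library left out.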

Additional observations from a re-analysis of the deposited data

How the results depend on the processing

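Over 15 settings, 525 of 533 values of single FGF pathway genes kept their direction and their side of the threshold, 6 no longer passed and 2 changed sign. Neither of these was called: Frs2 had a log2 fold change of 0.0092 after quantile normalization, and Etv1 ran from -0.021 (without 46C-Ctrl replicate 2) to 0.21 with 1 library left out. The 6 are Fgfr1, Spry1, Spred1, Spred2, Dusp4 and Dusp6 under a condition of at least 2-fold, which left 6 genes of the set higher and 15 lower. That condition also left 1493 of all genes higher and 1207 lower, against 3940 and 4058 without it. A filter at a mean of 50 left 29 genes of the set, with 6 higher and 17 lower. Leaving out any 1 library gave 9 higher and 18 lower in the set each time, and over all genes 3185 to 3787 higher and 3460 to 3873 lower. With the replicate number as a block there were again 9 and 18 (3625 and 3749 over all genes). The labels do not say that the numbers are a pairing, and they were not used as one in the main fit. Deviations of same-numbered libraries correlated by 0.00419, -0.0690 and 0.000587, and those of other pairs by -0.0967 to 0.103. With 3 libraries per group, these values cannot decide whether same-numbered libraries were made together. Depth limits the 10 genes with means under 10, and values of 0 in single libraries limit Fgf17 and Fgfbp3.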

Other observations

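Most secreted FGFs use heparan sulfate to bind their receptors, and the genes that make and carry it were also measured. Of 24 such genes, all tested, 6 were lower, 5 higher and 13 not called, against 26.4% lower and 25.6% higher over all genes tested. Their median log2 fold change was -0.00, beside 0.01 for all genes. Gpc4, a cell surface proteoglycan, was at 656 ± 44.2 normalized counts in the libraries labelled Zhx1-KO and 1739 ± 34.5 in 46C-Ctrl (SD, n = 3 each; log2 fold change -1.41, SE 0.06, limma adjusted p = 3.06e-06). Ext1, which builds the sugar chain, was at 934 ± 24.7 in the libraries labelled Zhx1-KO and 1786 ± 81.9 in 46C-Ctrl (log2 fold change -0.93). Sulf2, which removes sulfate from the finished chain, was at 1823 ± 177 in the libraries labelled Zhx1-KO and 2999 ± 112 in 46C-Ctrl (-0.72). Sdc2, another proteoglycan, was higher, at 593 ± 13.7 in the libraries labelled Zhx1-KO and 329 ± 31.3 in 46C-Ctrl (log2 fold change 0.85).

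Fgf3, Fgf4 and Fgf15 lie in a row on chromosome 7 of GRCm38, but did not change alike. Fgf3 (144838083 to 144844436) was lower, Fgf4 (144847367 to 144865243), which begins 2.93 kb after the end of Fgf3, did not pass, and Fgf15 (144896531 to 144900953) was higher. Ccnd1, a cyclin gene on the far side of Fgf15 (144929931 to 144939925), did not pass, with 2048, 2175 and 2043 normalized counts in the libraries labelled Zhx1-KO and 2038, 2087 and 2037 in 46C-Ctrl (log2 fold change 0.02). All 3 Fgf genes are read from the plus strand.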
